A study of Mus musculus with 16 samples.

Results

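Heat shock chaperones of the cytosol and of mitochondria, with their cochaperones and the heat shock factors, were followed in type 1 conventional dendritic cells (cDC1) with and without an intact copy of Wdfy4. The group was a list of 42 genes named by symbol, and 39 of them were measured, out of 19938 genes in all, each through the brightest probe set that carries its symbol alone. Hspa1b, Hsp90ab1 and Hsf1 had no such probe set and are not analysed here under their own names. The question was whether Hsph1 and Hspa1a, the members that differed most between the genotypes in earlier work on these values, stand alone or whether the family moves with them.

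Mice of the C57BL/6 strain, WDFY4 KO or WDFY4 Het, carried a regressor tumour placed in the back flank. At 6 days the inguinal lymph nodes were taken, opened with collagenase B and DNase I, and cDC1 were sorted from them. KO cells from the draining node, Het cells from the draining node, KO cells from the non-draining node and Het cells from the non-draining node had 4 arrays each, 16 in all. The labels call cells of the draining flank activated. All mice bore a tumour, so no group was free of one, and the Het mice keep 1 intact copy of the gene, so no wild-type mice were among the groups. Whether arrays of 1 group stand for different animals is not in the labels, so p-values measure only how far these samples spread, which may be technical in part.

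Heat shock proteins are chaperones that hold and refold other proteins. HSP70 binds unfolded stretches in cycles of ATP hydrolysis, J-domain proteins bring it clients and start the hydrolysis, and HSP110 and BAG proteins exchange its nucleotide. HSP90 and its cochaperones finish the folding of kinases and steroid receptors, small heat shock proteins hold clients that have unfolded, and chaperonins enclose a client in a chamber. In heat or proteotoxic stress, heat shock factor 1 (HSF1) binds repeats of GAA and TTC in promoters and drives the inducible members, whereas other members are made at all times. In dendritic cells HSP90 and HSP70 are also known for handling antigen that is cross-presented.

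Array medians lay between 38.6 and 40.8 intensity units, and the correlation between any 2 arrays was between 0.972 and 0.996. Wdfy4 averaged 2252 ± 411 intensity units in KO draining cells and 2957 ± 433 in Het draining cells, and 2375 ± 557 in KO non-draining cells and 2804 ± 549 in Het non-draining cells (SD, n = 4 each). The difference over both nodes was −0.32 ± 0.12 on the log2 scale (SE, adjusted p = 1.00 in limma), so the probes that read Wdfy4 showed a small difference. Which exons the KO lacks is not stated in the labels, and probes outside them check nothing. Of the cDC1 markers, Xcr1 averaged 1853 ± 195 intensity units in KO draining cells and 2076 ± 372 in Het draining cells, and Clec9a 1390 ± 264 in KO non-draining cells and 1198 ± 206 in Het non-draining cells (SD, n = 4 each). The median gene over all arrays was at 46.5 intensity units, so these defining markers of cDC1 were present. In bulk RNA of this kind, fewer cells of a type and less RNA per cell cannot be told apart.

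The heat shock element was looked up first, because the members that differed most between the genotypes are heat-inducible. RefSeq's promoter windows (GRCm38.p6, 250 bases before to 50 bases after a gene's start) held 33 of the measured members, and Hspa8, Hspa9, Hspa13, Hsp90aa1, St13 and Cryab had no window. The motif searched has 13 letters: GAA, TTC and GAA in a row with any 2 bases between neighbours, or its reverse complement, so both strands were covered. It was present in 5 of 33 members (15.2%), in 4 of 14 heat-inducible members (28.6%) and in 179 of 27025 genes with a window (0.662%). These 5 members are shown with 3 bases of context on each side and the run covered by matches in capitals. Matches may overlap, as in Chordc1, where 3 of them lie in the run. Hspd1 and Hspe1 lie head to head and share the same bases, read on opposite strands.

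Hsph1, chr5:149636285-149636303, minus strand: agaTTCTGGAAAGTTCtcc

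Chordc1, chr9:18292260-18292288, plus strand: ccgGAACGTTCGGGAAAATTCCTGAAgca

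Dnajb6, chr5:29735849-29735867, plus strand: cgaGAATCTTCCGGAAcgc

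Hspd1, chr1:55088056-55088079, minus strand: gccTTCCGGAAGGTTCTAGAAcgg

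Hspe1, chr1:55088056-55088079, plus strand: ccgTTCTAGAACCTTCCGGAAggc

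The run in Hsph1 lies 16 to 28 bases after its more downstream annotated start and 37 to 49 bases after the upstream one. Hspa1a and Dnajb1, the members with the next smallest p-values, did not hold the 13-letter motif in their windows. A shorter form, GAANNTTC or TTCNNGAA, was searched after that result was seen, and was present in 16 of 33 members (48.5%), 10 of 14 heat-inducible members (71.4%) and 4587 of 27025 genes (17.0%). The 250 bases before the start of these 3 members follow, with the shorter form in capitals. Hsph1 and Hspa1a have 1 match each there and Dnajb1 has 0.

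Hsph1, chr5:149636337-149636586, minus strand: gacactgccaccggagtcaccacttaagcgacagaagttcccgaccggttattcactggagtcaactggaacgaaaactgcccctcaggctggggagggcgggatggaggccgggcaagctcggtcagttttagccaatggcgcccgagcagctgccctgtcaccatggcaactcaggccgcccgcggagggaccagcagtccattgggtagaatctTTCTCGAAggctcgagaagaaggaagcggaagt

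Hspa1a, chr17:34972157-34972406, minus strand: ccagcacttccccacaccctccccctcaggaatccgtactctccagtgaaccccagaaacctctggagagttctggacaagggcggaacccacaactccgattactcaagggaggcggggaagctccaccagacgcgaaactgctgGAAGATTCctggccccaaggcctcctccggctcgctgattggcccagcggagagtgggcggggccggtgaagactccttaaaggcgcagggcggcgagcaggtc

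Dnajb1, chr8:83607925-83608174, plus strand: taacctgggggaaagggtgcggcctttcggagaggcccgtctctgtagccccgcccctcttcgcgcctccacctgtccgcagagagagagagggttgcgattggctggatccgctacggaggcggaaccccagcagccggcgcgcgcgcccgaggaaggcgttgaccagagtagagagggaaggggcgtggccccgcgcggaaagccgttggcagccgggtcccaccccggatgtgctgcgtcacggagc

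A match describes these letters only, and no match says nothing about the factor.

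Hsph1 was higher in KO cells in both nodes, and Hspa1a, Dnajb1, Hsp90aa1, Hspd1 and Hspa14 stood behind it, but no member passed the test after adjustment except Hsph1 where each array number was fitted as a fixed block. KO minus Het over both nodes was 0.78 for Hsph1, 0.97 for Hspa1a and 0.42 for Dnajb1 on the log2 scale, which are folds of 1.72, 1.96 and 1.34. The median member differed by 0.05, and 32 of 39 members lay within 0.25 of 0. All values below are log2(intensity + 1), per array or as a KO minus Het difference, unless another scale is named, and an error after a difference is limma's standard error.

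Hsph1 encodes HSP105, an HSP110 that exchanges the nucleotide of HSP70. In the draining node it read 8.80, 8.35, 8.52 and 8.25 in KO cells, against 7.80, 7.97, 8.25 and 7.64 in Het cells. In the non-draining node it read 8.25, 8.64, 8.98 and 8.27 in KO cells, against 7.66, 7.59, 7.48 and 7.40 in Het cells. The groups did not overlap in either node, although the lowest KO array and the highest Het array of the draining node met at 8.25. The difference was 0.56 ± 0.17 in the draining node and 1.00 ± 0.17 in the non-draining node (exact permutation p = 0.0286 in each, the smallest that 4 against 4 arrays can give). Over both nodes it was 0.78 ± 0.12 with a 95% interval of 0.53 to 1.03. Hsph1 had the smallest p of all 19938 genes there (unadjusted p = 5.18e-06 and adjusted p = 0.103 in limma). With the array number as a fixed replicate block the adjusted p was 0.0315, and with genotype and number as a random block it was 0.358. Each group holds each array number, so neither block can move the size of the difference. The share of genes whose KO arrays all lay above the Het arrays of the same node, in both nodes, was 0.0301%, which is 6 genes, and Hsph1 was the 1 member among them. Hsph1, like Hspa1a below, was named for its difference in these same values. Its rank, its p-values and its place among the 6 genes thus repeat that choice and are no independent test.

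Hspa1a encodes the heat-inducible HSP70. In the draining node it read 10.11, 8.88, 9.95 and 9.91 in KO cells, against 7.91, 9.17, 9.50 and 9.12 in Het cells. Its non-draining values were 9.42, 9.37, 10.37 and 9.75 in KO cells, against 7.80, 8.90, 8.87 and 8.72 in Het cells. The groups overlapped in the draining node, through KO array 2, and did not in the non-draining node. The difference was 0.79 ± 0.35 in the draining node (exact permutation p = 0.114) and 1.16 ± 0.35 in the non-draining node (exact permutation p = 0.0286). Without Het array 1 the draining difference was 0.45. Over both nodes it was 0.97 ± 0.25 (unadjusted p = 0.00115 and adjusted p = 1.00 in limma).

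Hspa1b is a near copy of Hspa1a, and the annotation gives both symbols to 1 further probe set, so reads of the 2 genes cannot be told apart on these arrays. That shared probe set averaged 9.78 ± 0.54 in KO draining cells and 8.70 ± 0.74 in Het draining cells, and 9.66 ± 0.73 in KO non-draining cells and 8.58 ± 0.50 in Het non-draining cells (SD, n = 4 each). It differed by 1.08 in the draining node (exact permutation p = 0.0571) and by 1.07 in the non-draining node (exact permutation p = 0.0286). It lay on the same side as the probe set of Hspa1a alone, with Het array 1 again the lowest of the Het arrays in each node.

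**Figure D1:**
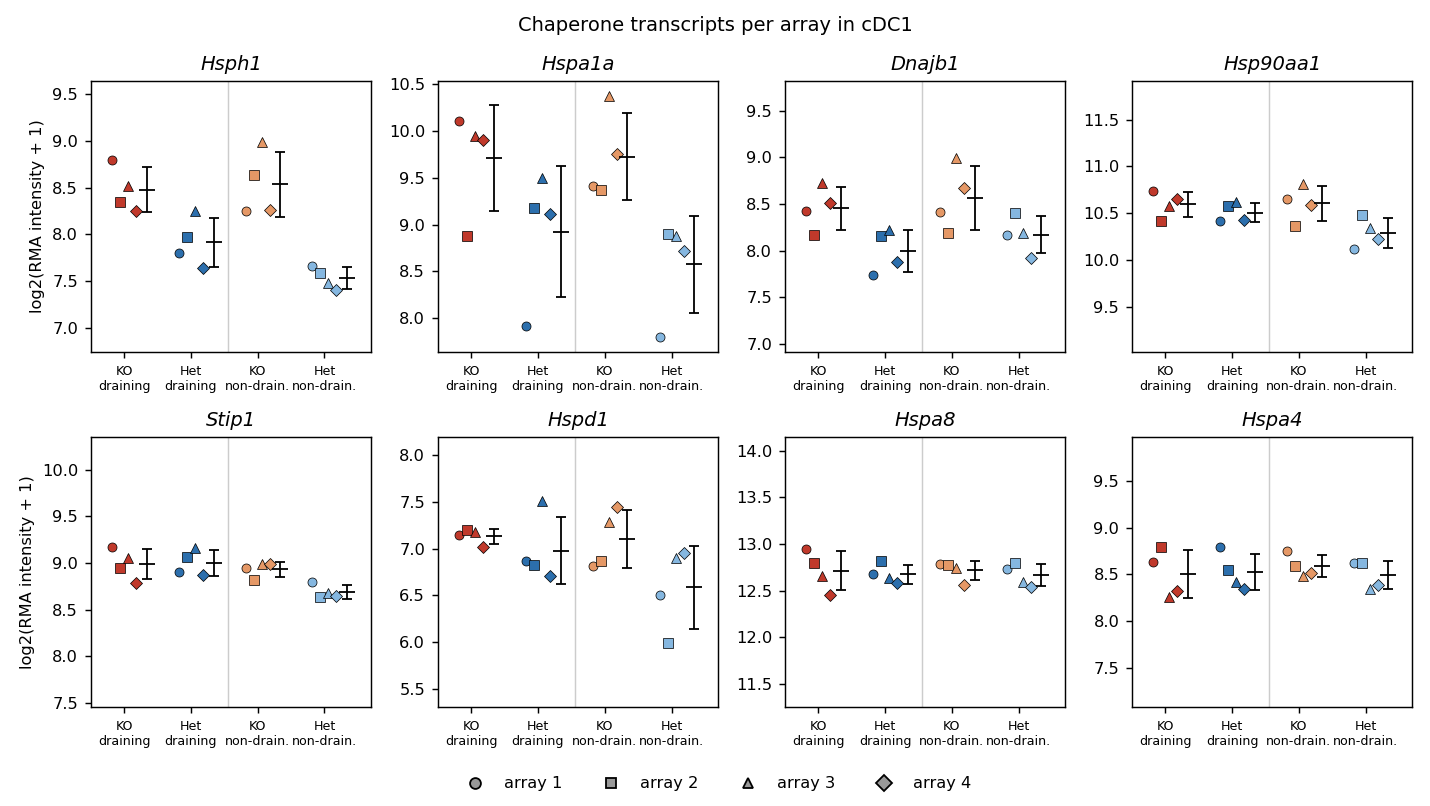
Each panel plots log2(RMA intensity + 1) of 1 member on 16 arrays, with KO left of Het within the draining node and then within the non-draining node; marker shapes give the array number, and bars give the mean and SD of 4 arrays. Hsph1 lies higher in KO cells on every array of each node, Hspa1a and Dnajb1 overlap in part, and Hspa8 and Hspa4 lie at like levels in all 4 groups.

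Among the other 7 measured HSP70 and HSP110 genes the differences over both nodes were smaller. Hspa8, the constitutive HSP70 and the brightest member, averaged 12.72 ± 0.21 in KO draining cells and 12.68 ± 0.10 in Het draining cells (SD, n = 4 each). Its difference over both nodes was 0.04 ± 0.07 with a 95% interval of −0.11 to 0.20, which does not reach that of Hsph1. Hspa4 and Hspa4l, the other HSP110 genes, differed by 0.03 ± 0.09 and 0.02 ± 0.08 over both nodes, with intervals of −0.16 to 0.23 and −0.14 to 0.18. Both intervals end below the interval of Hsph1, which begins at 0.53. Hsph1 was named for its difference in these same values, so its interval lies high by that choice and these comparisons with it are no test.

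Hspa14 encodes a ribosome-bound HSP70 that helps new chains fold. It read 7.85, 8.32, 7.91 and 7.93 in draining KO cells, against 7.56, 7.64, 7.95 and 7.88 in draining Het cells. It read 7.83, 8.23, 7.94 and 7.85 in non-draining KO cells, against 7.59, 7.76, 7.55 and 7.86 in non-draining Het cells. The groups overlapped in both nodes, and KO array 2 was the highest in each. The difference over both nodes was 0.26 ± 0.09 (unadjusted p = 0.0111, adjusted p = 1.00 in limma), and that of the draining node was 0.25, or 0.14 without KO array 2.

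Hspa9, the HSP70 of mitochondria, read 7.43, 7.50, 7.88 and 7.88 in draining KO cells, against 7.64, 7.92, 8.07 and 8.07 in draining Het cells. It read 8.08, 7.97, 7.82 and 7.79 in non-draining KO cells, against 7.47, 7.74, 7.73 and 7.85 in non-draining Het cells. KO arrays tended to the low side in the draining node and to the high side in the non-draining node, with overlap in both. It differed by −0.26 ± 0.13 in the draining node and 0.22 ± 0.13 in the non-draining node. It had the smallest interaction p of the members, with a difference between nodes of −0.47 ± 0.19 (unadjusted p = 0.0209, adjusted p = 1.00 in limma). Hspa13, an HSP70 relative of the endoplasmic reticulum, read 5.24, 7.02, 5.67 and 5.71 in draining KO cells, against 5.58, 5.54, 5.63 and 4.86 in draining Het cells. It read 5.15, 5.95, 5.72 and 5.99 in non-draining KO cells, against 5.64, 6.05, 6.00 and 5.68 in non-draining Het cells. Its groups overlapped in both nodes, its draining difference was 0.50 ± 0.30, and KO array 2 stood more than 1 log2 unit above the other KO arrays there. Of the 9 genes of this family, 8 lay above 0 over both nodes, with a median of 0.16, against 50.8% of all genes above 0. In 3 of them (Hsph1, Hspa1a and Hspa14) the unadjusted p was under 0.05 on the high side, against 1.75% of all genes. Both counts include Hsph1 and Hspa1a, which were chosen for their differences in these same values, so they are no test of the family. Apart from these, only Hspa14 had such a p.

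Hsp90aa1 encodes the inducible cytosolic HSP90. In the draining node it read 10.74, 10.42, 10.57 and 10.65 in KO cells, against 10.41, 10.57, 10.62 and 10.42 in Het cells. Its non-draining values were 10.65, 10.36, 10.82 and 10.59 in KO cells, against 10.11, 10.48, 10.34 and 10.22 in Het cells. Both pairs of groups overlapped, the second through KO array 2 and Het array 2. The difference was 0.09 ± 0.11 in the draining node and 0.32 ± 0.11 in the non-draining node (unadjusted p = 0.0104, adjusted p = 1.00 in limma), or 1.15-fold over both nodes. Without single arrays the draining difference ran from 0.04, without KO array 1, to 0.15, without KO array 2. Its 3 probe sets gave 0.20 to 0.23 over both nodes.

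Stip1, the adaptor that passes clients from HSP70 to HSP90, read 9.17, 8.95, 9.05 and 8.79 in draining KO cells, against 8.90, 9.07, 9.16 and 8.87 in draining Het cells. Non-draining cells had 8.94, 8.82, 8.99 and 8.99 in KO cells, against 8.79, 8.64, 8.68 and 8.64 in Het cells. The groups overlapped in the draining node and did not in the non-draining node. The difference was −0.01 ± 0.09 in the draining node and 0.24 ± 0.09 in the non-draining node (unadjusted p = 0.0198 and adjusted p = 1.00 in limma; exact permutation p = 0.0286).

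Chordc1, an HSP90 cochaperone that HSF1 induces, lay on the other side. It read 5.35, 4.99, 5.92 and 5.76 in draining KO cells, against 6.00, 5.90, 6.25 and 5.95 in draining Het cells. It read 5.52, 5.26, 5.98 and 5.54 in non-draining KO cells, against 5.02, 5.53, 5.80 and 5.97 in non-draining Het cells. Only KO array 3 reached the Het arrays in the draining node, and the groups overlapped widely in the non-draining node. The difference was −0.52 ± 0.21 in the draining node (unadjusted p = 0.0262, adjusted p = 1.00 in limma) and −0.00 ± 0.21 in the non-draining node. Chordc1 lay above the median gene on 9 of 16 arrays, so its values are near the dim end.

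Ptges3, the p23 cochaperone that holds HSP90 in its closed form, read 9.04, 8.72, 9.16 and 9.02 in draining KO cells, against 9.36, 9.59, 9.32 and 9.06 in draining Het cells. Non-draining cells had 9.78, 9.06, 9.30 and 9.15 in KO cells, against 8.90, 9.24, 9.20 and 9.31 in Het cells. In both nodes the groups overlapped. The difference was −0.35 ± 0.15 in the draining node (unadjusted p = 0.0389, adjusted p = 1.00 in limma) and 0.16 ± 0.15 in the non-draining node, where it was 0.01 without KO array 1, 0.07 without Het array 1 and 0.25 without KO array 2. Its other probe sets gave −0.28 and −0.22 in the draining node and −0.17 and −0.32 in the non-draining node, so the probe sets disagree in sign in the non-draining node.

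The other HSP90 genes and cochaperones were Trap1, the HSP90 of mitochondria; Ahsa1, which speeds HSP90's ATPase; Cdc37, which brings kinases; Fkbp4, an immunophilin of steroid receptors; St13, which steadies HSP70 with ADP; and Stub1, a ubiquitin ligase. Their differences over both nodes lay between 0.05 and 0.11, and none had an unadjusted p under 0.05 in either node. Of the 10 genes of this group, 8 lay above 0 over both nodes, with a median of 0.07, against 50.8% of all genes.

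Dnajb1 encodes HSP40, the heat-inducible J-domain partner of HSP70. In the draining node it read 8.42, 8.17, 8.72 and 8.51 in KO cells, against 7.74, 8.16, 8.22 and 7.88 in Het cells. Its values in the other node were 8.41, 8.19, 8.99 and 8.67 in KO cells, against 8.17, 8.40, 8.19 and 7.92 in Het cells. Arrays of the genotypes overlapped in both nodes, in each through KO array 2. The difference was 0.45 ± 0.17 in the draining node (exact permutation p = 0.0571) and 0.40 ± 0.17 in the non-draining node (exact permutation p = 0.0857), where it was 0.25 without KO array 3. Over both nodes it was 0.42 ± 0.12 (unadjusted p = 0.00228, adjusted p = 1.00 in limma).

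The other 7 J-domain genes had smaller differences over both nodes. Dnaja1, the other main heat-inducible HSP40, differed by 0.12 ± 0.09 over both nodes, with a 95% interval of −0.08 to 0.32. Dnajb6, which suppresses aggregation, differed by 0.01 ± 0.22 in the draining node and −0.33 ± 0.22 in the non-draining node. Of the 8 genes, 3 lay above 0 and 5 below over both nodes, with a median of −0.01.

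Bag3 encodes the stress-induced BAG protein that couples HSP70 to autophagy. It read 6.66, 6.43, 6.68 and 6.63 in draining KO cells, against 6.33, 5.99, 6.68 and 6.18 in draining Het cells. It read 6.51, 6.48, 6.52 and 6.42 in non-draining KO cells, against 6.50, 6.46, 6.45 and 6.51 in non-draining Het cells. The groups overlapped in the draining node through Het array 3, and all non-draining arrays lay close together. The difference was 0.30 ± 0.11 in the draining node (unadjusted p = 0.0163, adjusted p = 1.00 in limma), or 0.20 without Het array 2, and 0.00 ± 0.11 in the non-draining node. Bag1 and Bag5, further exchange factors of HSP70, differed by −0.00 ± 0.14 and −0.05 ± 0.10 over both nodes.

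Of the small heat shock proteins, Cryab and Hspb8 were the dimmest members and lay below the median gene on all 16 arrays. Hspb1 lay above the median gene on all 16 arrays, and averaged 7.03 in KO draining cells and 6.83 in Het draining cells. Hspb1 differed by 0.12 ± 0.21 over both nodes, with a 95% interval of −0.33 to 0.56. Cryab lay between 4.98 and 5.28 in KO draining cells, against 4.78 to 4.98 in KO non-draining cells. These arrays did not overlap, by a margin that 2 decimals do not show, and the difference was 0.18 ± 0.12 (unadjusted p = 0.166, adjusted p = 1.00 in limma).

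Hspd1 encodes HSP60, the chaperonin of mitochondria. It read 7.14, 7.20, 7.17 and 7.02 in draining KO cells, against 6.87, 6.82, 7.51 and 6.71 in draining Het cells. It read 6.82, 6.87, 7.29 and 7.45 in non-draining KO cells, against 6.50, 5.99, 6.90 and 6.95 in non-draining Het cells. Arrays of the genotypes overlapped in both nodes. The difference was 0.16 ± 0.21 in the draining node and 0.52 ± 0.21 in the non-draining node (unadjusted p = 0.023, adjusted p = 1.00 in limma), or 0.32 without Het array 2 there. The draining difference was 0.33 without Het array 3, 0.10 without Het array 2 and 0.07 without Het array 4. A dimmer probe set of Hspd1 gave −0.04 in the draining node and 0.65 in the non-draining node. Hspe1, the lid of the same chamber, whose promoter bases are those of Hspd1 above, differed by 0.15 ± 0.11 over both nodes, with a 95% interval of −0.09 to 0.40. Cct2, Cct3 and Cct5, subunits of the cytosolic chaperonin, differed by −0.05, −0.13 and −0.03 over both nodes. Hsf2, the measured heat shock factor, differed by −0.28 ± 0.18 over both nodes (unadjusted p = 0.139, adjusted p = 1.00 in limma).

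**Figure D2:**
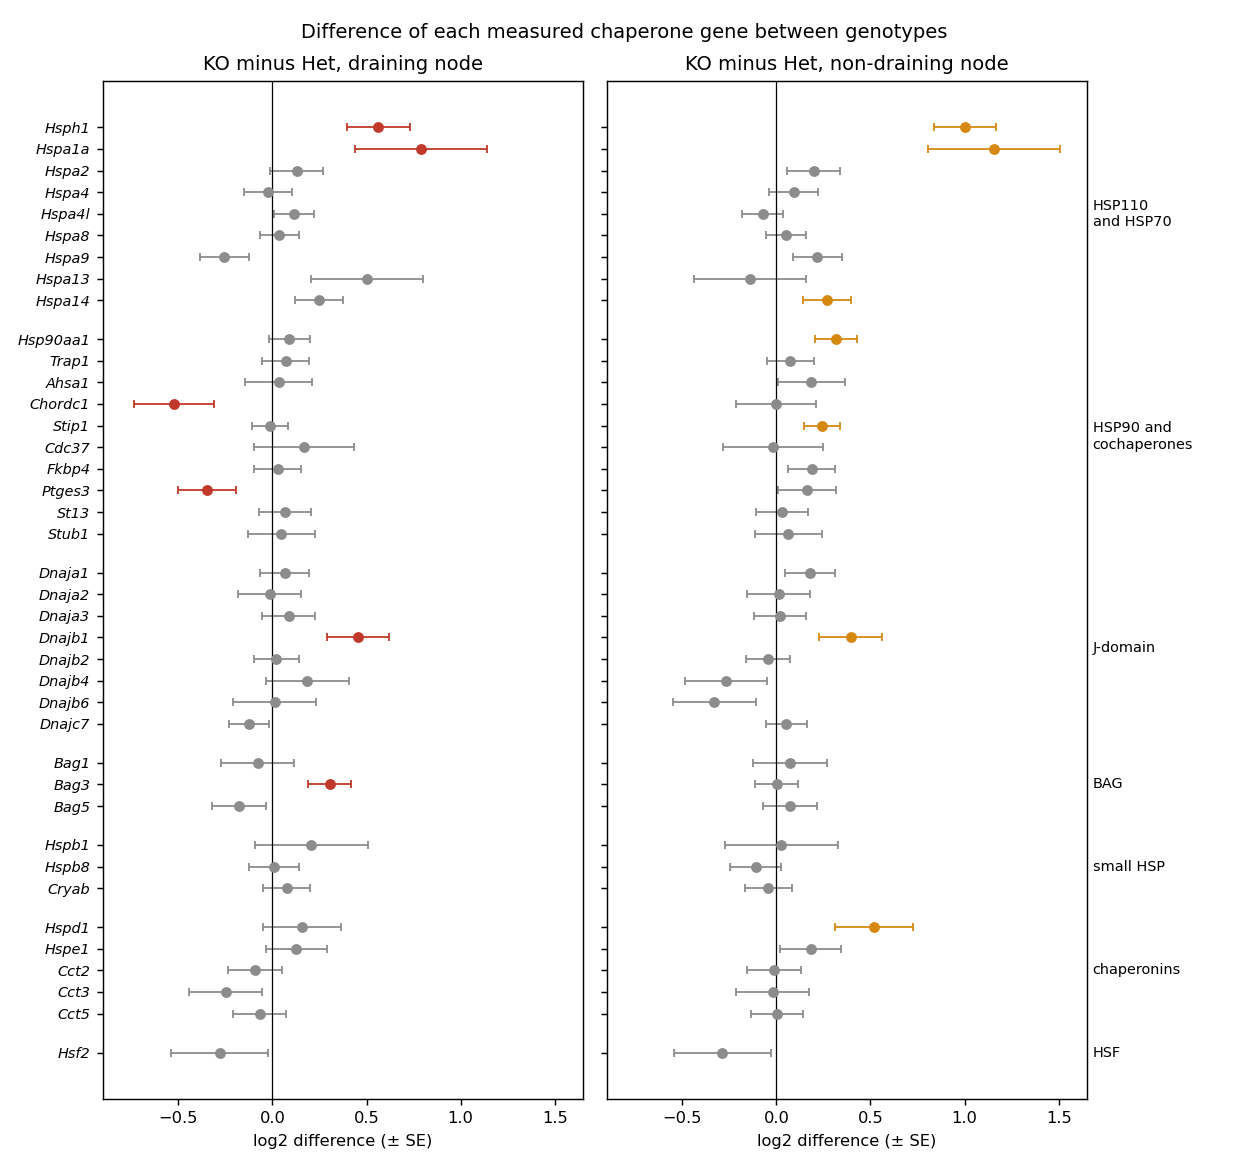
Points give the KO minus Het difference in log2(intensity + 1) of each of 39 members, with bars of 1 SE, in the draining node (left) and the non-draining node (right), by role; coloured points have an unadjusted p under 0.05 and grey points do not. Hsph1, Hspa1a and Dnajb1 are coloured on the high side in both panels, Chordc1 and Ptges3 on the low side in the draining panel alone, and most members lie near 0.

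Counted over the list, no member passed the adjusted test in the fit without a block. At an adjusted p under 0.05, limma called 0 members and 0 genes in either node and in their mean, and percent called was 0 in each. In the draining node 4 of 39 members were higher and 2 lower at an unadjusted p under 0.05, against 1.69% and 1.7% of all genes. The 4 were Hsph1, Dnajb1, Bag3 and Hspa1a, and the count was 2 without Het array 1 or without KO array 3. In the non-draining node 7 of 39 members were higher and 0 lower, against 1.3% and 1.18% of all genes, or 4 without KO array 3. Over both nodes 6 were higher and 0 lower, against 1.75% and 1.75% of all genes. These counts include Hsph1 and Hspa1a, which were chosen for their differences in these same values. Among the other 37 members, draining cells had 2 higher and 2 lower at that p, so neither side was favoured there. Non-draining cells had 5 of the 37 higher and 0 lower. KO arrays all lay above Het arrays for 1 member in the draining node (Hsph1) and for 3 in the non-draining node (Hsph1, Hspa1a and Stip1), against 0.838% and 1.2% of all genes. They all lay below Het arrays for 0 members in either node and in both, against 0.747%, 1.19% and 0.015% of all genes.

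The sign of the difference was mixed. In the draining node 26 members lay above 0 and 13 below, in the non-draining node 27 and 12, and over both nodes 24 and 15, against 49.1%, 51.9% and 50.8% of all genes above 0. The members' median was 0.05 in each of these comparisons, and the median of all genes was 0.00 over both nodes. In arrays 1 and 2 alone, 17 of 39 members lay above 0 in the draining node. Without Hsph1 and Hspa1a, 22 of 37 members lay above 0 over both nodes with a median of 0.04. Of the 37, 4 had an unadjusted p under 0.05 on the high side and 0 on the low side, against 1.75% and 1.75% of all genes. Over both nodes 5 members exceeded 0.25 and 2 (Hsf2 and Chordc1) lay below −0.25, against 1.32% and 1.59% of all genes.

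The heat-inducible members, those that HSF1 is known to drive, included the 3 genes with the smallest p-values. Of 17 measured, 15 were above 0 for draining cells, 13 for non-draining cells and 15 over both nodes, with medians of 0.11, 0.18 and 0.12, against 49.1%, 51.9% and 50.8% of all genes above 0. Without Hsph1 and Hspa1a, 13 of 15 lay above 0 over both nodes, with a median of 0.12, and 3 (Dnajb1, Hsp90aa1 and Hspd1) had an unadjusted p under 0.05 on the high side, against 1.75% of all genes. Of the 22 members outside this list, 9 lay above 0 over both nodes, with a median of −0.01. Of them 1 (Hspa14) had an unadjusted p under 0.05 on the high side, against 1.75% of all genes. The difference between these lists was not tested, since they were drawn up with results of these values known.

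**Figure D3:**
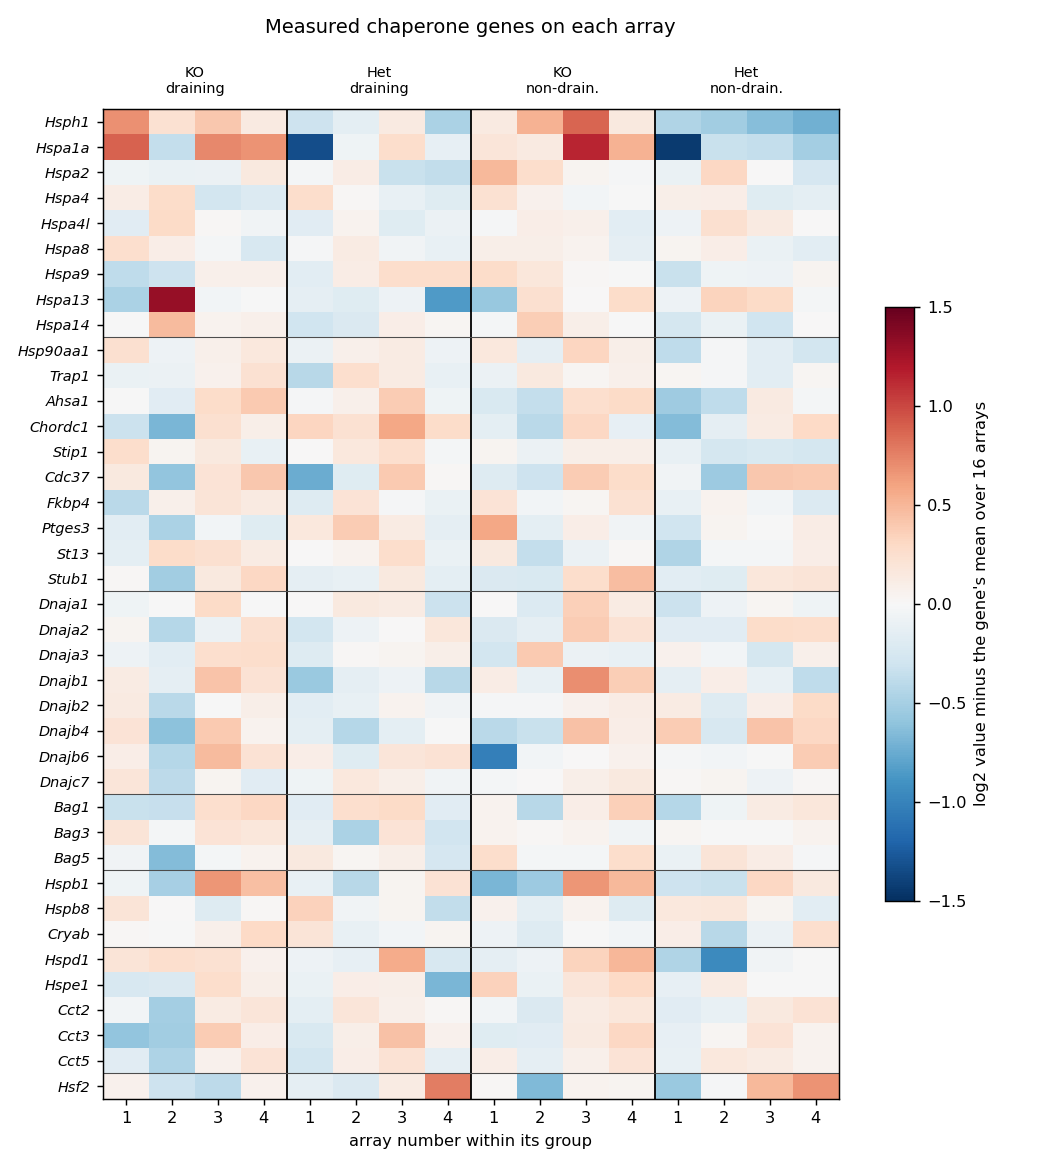
Colour gives log2(intensity + 1) of each member on each array minus that member's mean over 16 arrays, from −1.5 (blue) to 1.5 (red), with KO columns left of Het columns in each node and members ordered by role. Hsph1 and Hspa1a are mostly red in KO columns and mostly blue in Het columns, while some other members, such as Hspb1 and Cdc37, also differ between arrays 1 and 2 and arrays 3 and 4.

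Further chaperones outside the list of members were counted in the same comparisons. Of 48 such genes, among them other subunits of the cytosolic chaperonin, prefoldin and proteases of mitochondria, 20 lay above 0 for draining cells, 30 for non-draining cells and 21 over both nodes. Their medians were −0.06, 0.03 and −0.01. Unc45a, an HSP90 cochaperone for myosin, was the 1 gene of the 48 with an unadjusted p under 0.05 over both nodes, at 0.16 ± 0.06 (adjusted p = 1.00 in limma). Of all genes, 3.49% had such a p in either direction. Of 10 other stress-inducible genes, 5 lay above 0 over both nodes with a median of −0.05, and Serpinh1, the collagen chaperone that HSF1 induces, differed by 0.26 ± 0.10 in the non-draining node (unadjusted p = 0.021, adjusted p = 1.00 in limma). Chaperones of the endoplasmic reticulum, which answer to another stress pathway, lay above 0 for 5 of 16 genes in draining cells, 15 in non-draining cells and 13 over both nodes, with medians of −0.05, 0.14 and 0.03. Among these Hspa5, the HSP70 of that compartment, differed by 0.16 ± 0.11 over both nodes and Herpud1 by 0.24 ± 0.09.

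Immediate early genes, which rise within minutes of stimulation and of tissue digestion, were also counted. Of 20, 19 lay above 0 in each node and all 20 over both, with medians of 0.29 in draining cells, 0.24 in non-draining cells and 0.27 over both, where 12 had an unadjusted p under 0.05 (1.75% of all genes did on the high side). Jun, a subunit of the AP-1 factor, differed by 0.50 ± 0.10 over both nodes (unadjusted p = 0.000125, adjusted p = 0.821 in limma), and its KO arrays all lay above the Het arrays of the same node. The summed intensity of the 20 genes ran from 28743 to 33267 in draining KO cells and from 24715 to 30716 in draining Het cells. For the other node it ran from 29849 to 35187 in KO cells and from 26127 to 30054 in Het cells. The part of this in the difference of Hsph1 was not tested.

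Markers of other cells were counted in each node. Of 7 B cell markers, 6 lay above 0 in the draining node (median 0.13), and all 7 in the non-draining node (median 0.51) and over both (median 0.36). Over both nodes 3 had an unadjusted p under 0.05, against 1.75% of all genes on the high side. Their summed intensity ran from 358 to 468 in KO cells and from 315 to 610 in Het cells of the draining node, and from 394 to 654 in KO cells and from 285 to 556 in Het cells of the non-draining node. All 9 T cell markers lay above 0 in the draining node (median 0.27) and below 0 in the non-draining node (median −0.38). The T cell sum ran from 1083 to 2338 in KO cells and from 954 to 1841 in Het cells of the draining node, and from 695 to 2008 in KO cells and from 1111 to 2165 in Het cells of the non-draining node. All 5 NK cell markers lay above 0 in both nodes, with medians of 0.15 in the draining node and 0.14 in the non-draining node, and none had an unadjusted p under 0.05. The NK cell sum ran from 147 to 202 in KO cells and from 128 to 165 in Het cells of the draining node, and from 159 to 226 in KO cells and from 138 to 171 in Het cells of the non-draining node. Of 5 macrophage and monocyte markers, 5 lay above 0 in the draining node and 4 in the non-draining node, with medians of 0.05 and 0.06. Their sum ran from 467 to 726 in KO cells and from 482 to 573 in Het cells of the draining node, and from 577 to 664 in KO cells and from 492 to 648 in Het cells of the non-draining node. Markers of plasmacytoid and migratory dendritic cells, neutrophils, stromal, erythroid and plasma cells had medians between −0.12 and 0.06 over both nodes. Of 13 cDC1 markers, 6 lay above 0 in the draining node and 12 in the non-draining node, with medians of −0.00 and 0.21. No marker is listed at 0, since RMA leaves none there, and the part of these cells in the chaperone values was not tested.

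Arrays that were high for Hsph1 were compared with other members in 48 relations, each with a permutation p and Benjamini-Hochberg adjustment over the 48. Hsph1 separates the genotypes, so relations are given within a genotype (n = 8) or after the mean of each group was taken off (n = 16). In the latter case the deviations were resampled over all arrays, not within groups. Deviations of a group depend on each other, so these p-values tend to be too small. Over the Het arrays of both nodes Stip1 and Hsph1 gave Pearson r = 0.95 (exact permutation p = 0.000298, adjusted 0.00714) and Spearman rho = 0.905 (exact permutation p = 0.00456, adjusted 0.0548). Without the 2 arrays farthest from the median of Hsph1, r was 0.833. In KO arrays r was 0.417 for Stip1 (exact permutation p = 0.308, adjusted 0.492), rho was 0.524 (exact permutation p = 0.197, adjusted 0.449), and r was −0.0436 without the 2 farthest arrays. Both genes differed between the nodes of Het cells, a difference that r over these arrays includes. The permutations within a genotype moved arrays freely between the nodes, so their p-values include that difference too. For Stip1 in Het arrays the p-value thus tends to be too small, and its place below the threshold does not settle the relation. After removal of group means r was 0.622 for Stip1 (permutation p = 0.0104, adjusted 0.0554) and rho was 0.521 (permutation p = 0.0411, adjusted 0.18), neither past the threshold, with r = 0.567 without the 2 farthest arrays.

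Hspa1a was set against Hsph1 in the same way. After removal of group means r was 0.397 (permutation p = 0.129, adjusted 0.308) and rho was 0.532 (permutation p = 0.0362, adjusted 0.18), and r was 0.124 without the 2 farthest arrays. Within KO arrays r was 0.58 and within Het arrays 0.362 (exact permutation p = 0.135 and 0.38, adjusted 0.308 and 0.536), and rho was 0.476 and 0.429 (exact permutation p = 0.243 and 0.299, adjusted 0.486 and 0.495). Without the 2 farthest arrays these r were −0.0594 and −0.586, so they rested on those arrays. Jun, after removal of group means, gave r = 0.66 (permutation p = 0.00564, adjusted 0.0387) and rho = 0.712 (permutation p = 0.00251, adjusted 0.0402), with r = 0.581 without the 2 farthest arrays. As these p-values were not resampled within groups, their place below the threshold does not settle the relation. Ranked over all 16 arrays by Pearson r, the genes most like Hsph1 were Jun, Jund, Zfp846, Cyp4f41-ps, Lactbl1, Klf2, Hspa1a, Mybl2, Rhob and Map3k8, a ranking that includes the genotype difference. Of the members, 4 were among the first 100 of the 19938 genes: Hspa1a, Hsp90aa1, Dnajb1 and Stip1. The median r of the members with Hsph1 was 0.11, against 0.0097 for all genes.

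**Figure D4:**
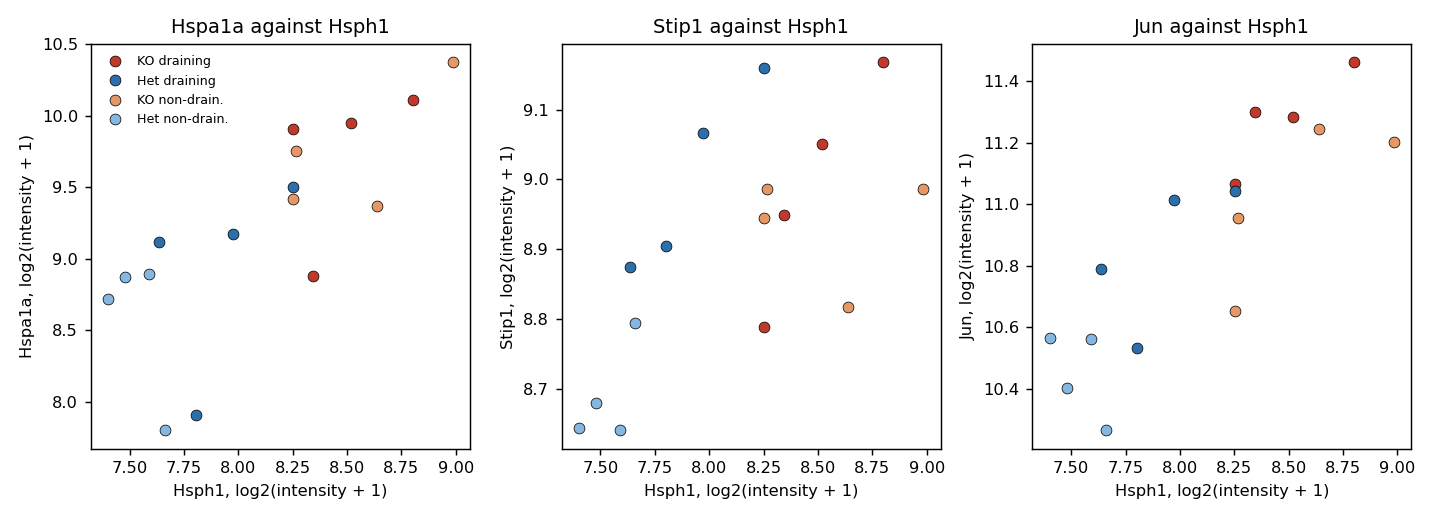
Each point is 1 of 16 arrays, with log2(intensity + 1) of Hsph1 on the x axis and of Hspa1a, Stip1 or Jun on the y axis, coloured by group. KO arrays lie to the right of Het arrays of the same node in every panel, and the Het arrays of Stip1 line up with Hsph1 (r = 0.95, n = 8) more closely than the KO arrays do (r = 0.417, n = 8), a difference that was not tested and that includes the node difference of Het cells.

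Between nodes the members had medians close to 0. In KO cells 15 members were higher and 24 lower in the draining node, with a median of −0.01, against 50.7% of all genes higher. At an unadjusted p under 0.05 there were 0 higher and 1 lower in limma, against 1.14% and 0.973% of all genes, and the 1 was Ptges3 at −0.34 ± 0.15. Without KO draining array 2 or KO non-draining array 3, 23 members lay above 0. In Het cells 21 were higher and 18 lower, with a median of 0.01, against 52.8% of all genes higher. Of these, 2 were higher and 0 lower at an unadjusted p under 0.05, against 1.93% and 1.35% of all genes. Without single arrays the higher count ran from 1, without Het draining array 2 or 3, to 4, without Het draining array 1 or Het non-draining array 3. In those fits 1.57% to 2.9% of all genes were higher at that p. The 2 were Stip1 at 0.31 ± 0.09 (unadjusted p = 0.00439, adjusted p = 1.00 in limma) and Hsph1 at 0.38 ± 0.17 (unadjusted p = 0.0352, adjusted p = 1.00 in limma). All same-numbered Het arrays of the 2 nodes had deviations that correlated over 0.1. Yet Het draining array 1 lay closer to non-draining array 2 (0.247) than to array 1 (0.230), and array 3 closer to array 4 (0.376 against 0.314). Pairs by number thus cannot be told apart from the split of arrays 1 and 2 against 3 and 4. The replicate block also joins KO and Het arrays by number. With it 5 members were higher (Stip1, Hsph1, Chordc1, Hspd1 and Ahsa1) and 1 lower (Dnajb4) at an unadjusted p under 0.05, against 2.61% and 1.98% of all genes. Chordc1 differed by 0.44 ± 0.15, Hspd1 by 0.39 ± 0.17, Ahsa1 by 0.29 ± 0.11 and Dnajb4 by −0.40 ± 0.14 in that fit, each with an adjusted p of 1.00 in limma. The Het arrays of Stip1 did not overlap between nodes, and neither did those of Hspa13, which was lower in the draining node, at −0.44 ± 0.30. Draining and non-draining arrays did not overlap, on the high side, for 1 member in KO cells (Cryab) and 1 in Het cells, against 0.848% and 1.4% of all genes. On the low side 0 members were separated in KO cells and 1 in Het cells, against 0.592% and 0.998% of all genes. At an adjusted p under 0.05 limma called 0 genes in each node comparison and in the interaction.

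The genotype difference was not shown to depend on the node. Hsph1 differed by 1.00 in the non-draining node and 0.56 in the draining node, and the interaction was −0.44 ± 0.24 (unadjusted p = 0.0806, adjusted p = 1.00 in limma). For Hspa1a the interaction was −0.37 ± 0.49. Of the 39 members, 14 had an interaction above 0 and 25 below, with a median of −0.06, against 47.7% of all genes above 0. At an unadjusted p under 0.05 there were 0 above and 2 below (Hspa9 and Ptges3), against 0.993% and 1.33% of all genes. The count below 0 was 4 without KO draining array 1 or Het draining array 4, and 1 without KO draining array 2, Het draining array 2 or Het non-draining array 1. Hsph1 was among those below 0 with the replicate block, and without KO draining array 1, Het draining array 4, KO non-draining array 1 or KO non-draining array 4. In these fits 1.15% to 1.86% of all genes were below 0 at that p. The adjusted p of Hsph1 in the interaction was at least 0.9987 in limma under every alternative.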

How the data were processed

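RNA of 16 sorted cDC1 samples was read on Affymetrix mouse arrays, 1 sample an array, and the deposited intensity values are RMA values, as the submitters' processing notes name that method; the software version is not given in the sources used here. The table held 35556 probe sets with values on a linear scale from 3.33 to 16300. RMA brings all arrays to 1 intensity distribution before probe sets are summarized, and compresses dim probe sets. A shift of all genes together is thus largely removed and differences of dim genes are understated. The array medians of the deposited values still ran from 38.6 to 40.8. Of the probe sets, 21789 had 1 symbol, 1621 several and 12146 none, and 19938 genes were kept by their brightest probe set. Probe sets of Hsp90aa1, Hspe1, Hspd1, Hspa8 and Hspb1 may also read near-identical copies of these genes, which was not tested.

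The values were tested as log2(intensity + 1), as the table was linear, with limma 3.58.1 in R 4.3.3. A single fit of 4 groups (12 residual degrees of freedom) gave 7 comparisons, two-sided, adjusted with Benjamini-Hochberg over 19938 genes at a threshold of 0.05. Exact permutation tests were two-sided, within nodes for the mean of both nodes, and correlations over 16 arrays used 100000 resamples, drawn over all arrays and not within groups. Members named with array values were those with an unadjusted p under 0.05 in a genotype or node comparison, or with groups that did not overlap. Cryab met this rule and is given by its range. Hspa9 did not meet it and was added for its unadjusted p in the interaction, which was not part of the planned rule. The members and lists were chosen with earlier results of these data known. The precision is limited by the number of arrays, and arrays have no read depth. Scaling, pseudocount, dim genes, probe sets, blocks, sets of arrays and single arrays were varied. Array numbers were taken as pairs where every same-numbered pair of 2 groups had a correlation of deviations over 0.1. All 4 pairs met this between the nodes of Het cells (0.20 to 0.31), and 2 or 3 of 4 in each other comparison. No label says what a number stands for. Het draining array 3 and Het non-draining array 4 correlated at 0.38, so the rule cannot tell pairs from the split of arrays 1 and 2 against 3 and 4. The code was tested on simulated data. Python 3.11.15 and matplotlib 3.10.9 served for the plots.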

Additional observations from a re-analysis of the deposited data

Results flagged for a closer look

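A single array stood far from the other 3 of its group in 11 of 156 groups of 4 (39 members in 4 groups), by Dixon's criterion at the 95% level; chance gives about 1 in 20 groups. Of the 11, 5 were in KO draining cells, and 3 of those were array 2. In KO draining array 2, Hspa1a was low at 8.88 against 9.91 to 10.1 on the others, Bag5 was low at 6.28 against 6.87 to 6.97, and Hspa14 was high at 8.32 against 7.85 to 7.93. Hspa2 was high in KO draining array 4, at 7.21 against 6.97 to 7.01, and Dnaja1 in KO draining array 3, at 9.46 against 9.11 to 9.17. In KO non-draining cells, Dnajb6 was low in array 1, at 5.83 against 6.81 to 6.92, and Hsf2 in array 2, at 6.62 against 7.30 to 7.34. In Het draining cells, Hspa13 was low in array 4, at 4.86 against 5.54 to 5.63, and Stub1 was high in array 3, at 8.50 against 8.20 to 8.25. In Het non-draining cells, Hspa1a was low in array 1, at 7.80 against 8.72 to 8.90, and Dnajb6 was high in array 4, at 7.23 against 6.82 to 6.85.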

How the results depend on the processing

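Each result was computed under 28 alternatives, 16 of which left out 1 array. Apart from Hsph1, as given next, no member passed the adjusted threshold under any of them. The count of genes past the adjusted threshold, 0 in every comparison, became 1 for KO against Het over both nodes with the replicate block (Hsph1, adjusted p = 0.0315 in limma). In arrays 3 and 4 alone it became 4 for KO against Het of the draining side, 2 for the non-draining side, 5 for their mean and 1 for KO cells between nodes, and 0 of these genes were members; the cause was not tested. The replicate block changed no other adjusted call. Between nodes of Het cells it made 5 members higher in place of 2 at an unadjusted p under 0.05. The share of all genes rose from 1.93% to 2.61%. With the random block and the block of array sets 5 members were also higher, against 2.99% and 2.66% of all genes. The random block had Hsp90aa1 in place of Ahsa1. In the interaction the replicate block put 4 in place of 2 below 0 at that p (Chordc1, Hspa9, Hsph1 and Ptges3), against 1.85% of all genes. It put 1 above 0 in place of 0 (Dnajb4), against 1.53%. Outside the Het node comparison the numbers were not taken as pairs, and arrays correlated best with their own number in 14 of 32 cases. Hsph1 over both nodes ranged from 0.71 to 0.84 and Hspa1a from 0.80 to 1.11, with adjusted p-values from 0.0315 to 1.00 and from 0.0798 to 1.00. In arrays 1 and 2 alone Hsph1 differed by 0.75 over both nodes and Dnajb1 by 0.18, and in arrays 3 and 4 alone by 0.81 and 0.67. The members' median over both nodes lay between 0.01 and 0.10 under all alternatives, and 21 to 33 members lay above 0. The members higher in KO cells at an unadjusted p under 0.05 ranged from 2 to 5 on the draining side, 3 to 7 on the non-draining side and 4 to 8 over both. In the fit without a block 1.69%, 1.3% and 1.75% of all genes were higher. The shares under each alternative are not given here. With 4 arrays a group, a simple comparison had a median standard error of 0.12.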

Other observations

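Arrays 3 and 4 were set against arrays 1 and 2 of the same group. The labels do not say what an array number stands for. On average over the 4 groups, 30 of 39 members were higher in arrays 3 and 4, with a median difference of 0.13 on the log2 scale, against a median of −0.03 for all genes and 42.2% of all genes higher. In all 4 groups alike, 15 members were higher and 4 lower, against 16% and 20.9% of all genes, and the other members differed in direction between groups. Hspb1, a small heat shock protein, was higher by 0.74 and did not overlap, with 6.94 to 7.56 in arrays 3 and 4 and 6.21 to 6.84 in arrays 1 and 2. Cdc37 was higher by 0.62, Hspa1a by 0.58, Hsf2 by 0.45 and Chordc1 by 0.45, while Hsph1 differed by −0.03 and Hspa8 by −0.20. Hspa4 differed by −0.28 and was the 1 member separated on the low side, against 0.697% of all genes, as Hspb1 was the 1 on the high side, against 1.05%. Each group holds each array number, so the array sets are balanced over the genotypes and nodes.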
